A study of Mus musculus with 6 samples.

Results

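The genes described here encode enzymes that write or remove methyl and acetyl groups on histones, or methyl groups on DNA. They were taken by gene symbol, as every gene whose symbol begins with Kdm, Hdac, Sirt or Kat and a digit, with Setd, Kmt or Dnmt, or with Ezh1, Ezh2, Tet1, Tet2 or Tet3. This gave 69 of the 24391 genes in the annotation. The rule itself uses no measured value, but it was chosen with earlier results of these data known. One of the 69, Dnmt3aos, is an antisense transcript of Dnmt3a and no enzyme gene, and several products act on proteins other than histones.

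The libraries were made from mRPMaxKO, a line grown from a mouse lung tumour of the RPMax-/- genotype, on a mixed 129/SvJ and C57BL/6 background, in which R and P stand for Rb1 and Trp53. The 3 MAX restored libraries and the 3 control libraries came from this 1 line, held as a polyclonal population with a doxycycline-inducible lentiviral vector after puromycin selection, at fewer than 20 passages. The protocol, worded alike for both groups, gives 4 days of doxycycline. Whether the control cells carried an empty vector or received doxycycline is not stated, and nor is it said that replicates were grown apart, so the p-values speak of the scatter among these libraries alone, part or all of which may be technical. The comparison asks which transcripts change when MAX, the obligate DNA-binding partner of MYC, is put back into tumour cells of a Max-deleted genotype.

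Histone acetyltransferases and deacetylases set the acetylation of histone tails, and lysine methyltransferases and demethylases set methylation at single lysines, where H3K4 methylation marks active promoters and enhancers and H3K9 and H3K27 methylation mark silent chromatin. DNA methyltransferases place methyl groups on cytosine and TET enzymes oxidise them. MYC-MAX dimers bind the E-box CACGTG and recruit acetyltransferase complexes through TRRAP, whereas MXD-MAX dimers bind the same site and recruit SIN3 and its histone deacetylases. In small cell lung cancer, the human tumour that Rb1 and Trp53 loss models, genes of histone acetyl- and methyltransferases are among those mutated.

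MAX restored libraries held 10253303 to 11925909 counts and control libraries 10046899 to 10425210. The deleted genes still gave counts, which are summed over a gene and do not show a deleted exon. Max itself had 1343, 1332 and 1306 CPM in MAX restored libraries 1, 2 and 3, against 62.9, 66.3 and 61.4 CPM in controls 1, 2 and 3, where CPM is a gene's counts scaled to a common library size after TMM normalization. Rb1 had 291, 288 and 291 CPM in MAX restored libraries, against 343, 307 and 316 CPM in controls, and Trp53 had 11.7, 10.1 and 12.3 CPM in MAX restored libraries, against 11.2, 13.8 and 12.6 CPM in controls. The labelled identity was met by 10 neuroendocrine markers, which summed to 9896 to 10230 CPM in MAX restored libraries and 9579 to 9803 CPM in controls. Fibroblast markers summed to at most 3.62 CPM, immune markers to at most 3.42 CPM and endothelial markers to at most 1.96 CPM in any library, with Lum, Cd3e and Cdh5 at 0 in all 6. Control 1 stood apart from the other controls, with a chi-square per degree of freedom of 8.91 and 10.2 against them, where controls 2 and 3 gave 1.5. The ribosomal RNA precursor Rn45s took 0.996% of its counts, against at most 0.187% in any other library. For the enzyme genes the median log2 ratio of control 1 to the mean of the other controls was -0.04, with 19 of 66 above it.

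Nearly the whole family was transcribed in both groups. Of the 69 genes, 66 had enough counts to be tested, and 3 did not. Dnmt3l, a catalytically inactive partner of the de novo DNA methyltransferases, had no read in any library, which allows up to 3 counts in a library. Kdm4d, a demethylase gene known from testis, had 1, 0 and 1 counts in MAX restored libraries 1, 2 and 3, against 2, 0 and 2 counts in controls 1, 2 and 3. Dnmt3aos had 7, 3 and 3 counts in the MAX restored libraries, against 0, 2 and 1 in the controls.

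Levels are compared between genes per kilobase of counted length. The maintenance DNA methyltransferase gene Dnmt1 was first in both groups, at 121 ± 3.63 CPM per kb in MAX restored libraries and 132 ± 3.21 CPM per kb in controls (SD, n = 3 each). Next came Hdac2, a class I deacetylase of the SIN3, NuRD and CoREST complexes, at 99.9 ± 2.16 and 109.6 ± 13.0 CPM per kb. The order below differed between the groups. In MAX restored libraries Kdm1a (LSD1), the H3K4 demethylase of CoREST, came next at 83.1 ± 2.02 CPM per kb, ahead of the class IV deacetylase gene Hdac11 at 77.3 ± 0.586 CPM per kb. In controls Hdac11 followed Hdac2 at 76.8 ± 0.774 CPM per kb, then the H4K20 methyltransferase gene Setd8 at 59.2 ± 0.944 CPM per kb, followed by Kdm1a at 55.8 ± 1.30 and Hdac5 at 55.6 ± 0.154 CPM per kb, which lay within their spread of each other. The lowest tested levels were 1.76 CPM per kb for Setd4 in MAX restored libraries and 1.67 CPM per kb for the class IIa deacetylase gene Hdac9 in controls. The plot of levels shows both groups in the order of the controls: 11 of 66 genes held the same place in both groups and 50 moved by at most 3 places, while Kdm4b stood at place 25 in MAX restored libraries and 41 in controls, and Kdm5c at 24 in MAX restored libraries and 13 in controls.

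**Figure D1:**
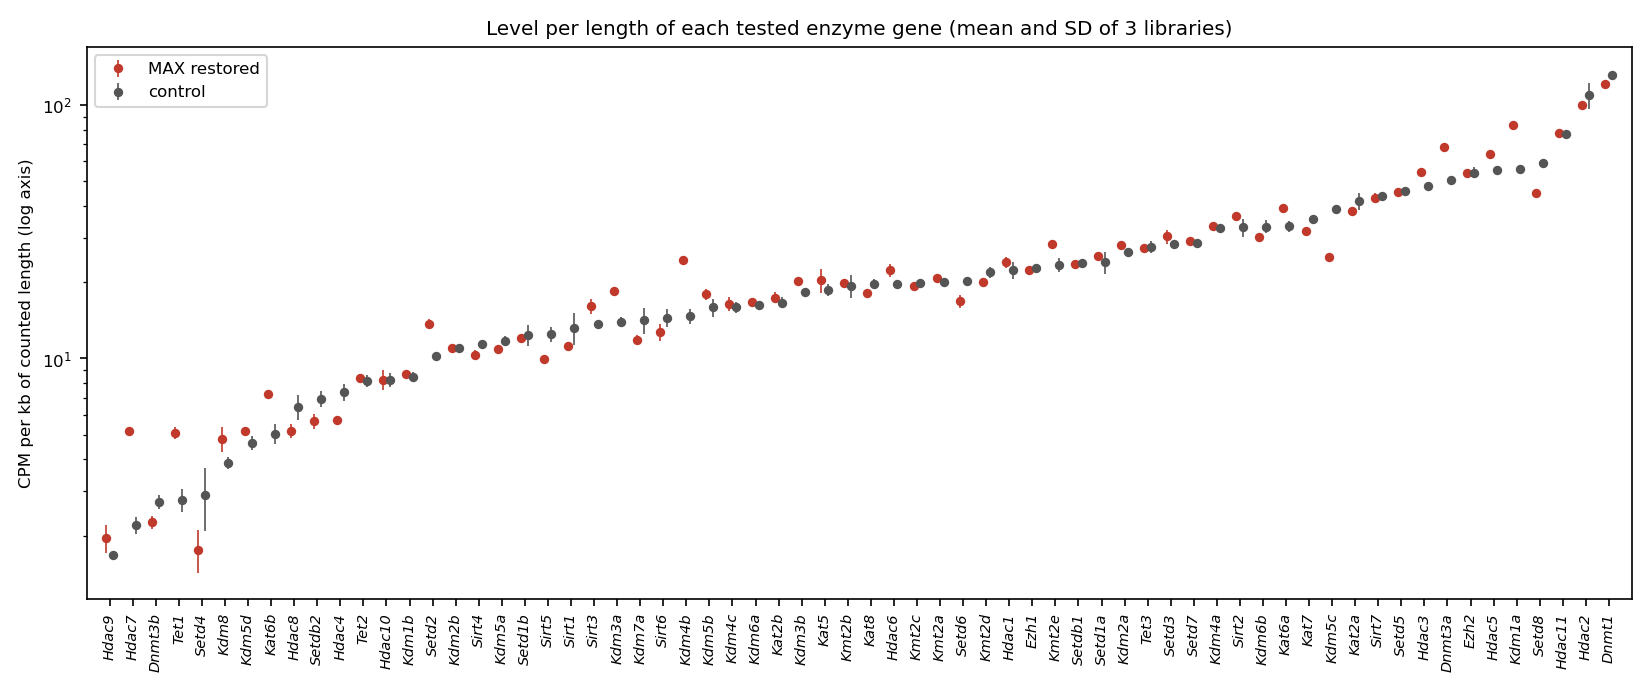
Level of each of 66 tested enzyme genes as CPM per kb of counted length (log axis), in order of the control level; points are means of 3 libraries and bars are SD, with MAX restored in red and control in grey. Dnmt1 and Hdac2 are highest in both groups, and Hdac7, Tet1, Kdm4b and Kdm1a lie visibly above their control level while Setd8 and Kdm5c lie below it.

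With MAX restored, 18 of the 66 tested genes were higher and 16 lower (edgeR's quasi-likelihood test, Benjamini-Hochberg adjusted p under 0.05 over all 12664 genes tested). Those 34 genes are 51.5% of the tested enzyme genes, where 63.5% of all tested genes were called, with 31.2% higher and 32.3% lower. When control 1 was left out, 20 were called higher and 17 lower, against 4033 higher and 4219 lower of all genes. The CPM ranges of the groups did not overlap for 33 enzyme genes, or 50%, against 67.1% of all tested genes. Changes were small: 7 enzyme genes, or 10.6%, were called with a log2 fold change of at least 0.5 in either direction, against 24.4% of all tested genes, and 1, or 1.52%, reached a log2 fold change of 1, against 8.53%. The median absolute log2 fold change was 0.14 for the enzyme genes and 0.26 for all tested genes, and the median with its sign was 0.02 for the enzyme genes and 0.00 for all tested genes.

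The enzyme genes were counted more deeply than most, with a median log2 CPM of 6.54 against 5.37 for all tested genes and a median counted length of 4823 against 2970 bases. In a band chosen after the data were seen, the interquartile range of their log2 CPM, from 5.45 to 7.58, 15 of 32 enzyme genes were called, or 46.9%, against 68.0% of 4954 tested genes. In that band the median absolute log2 fold change was 0.12 for the enzyme genes and 0.21 for all genes. The difference between the enzyme genes and the rest was not tested.

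**Figure D2:**
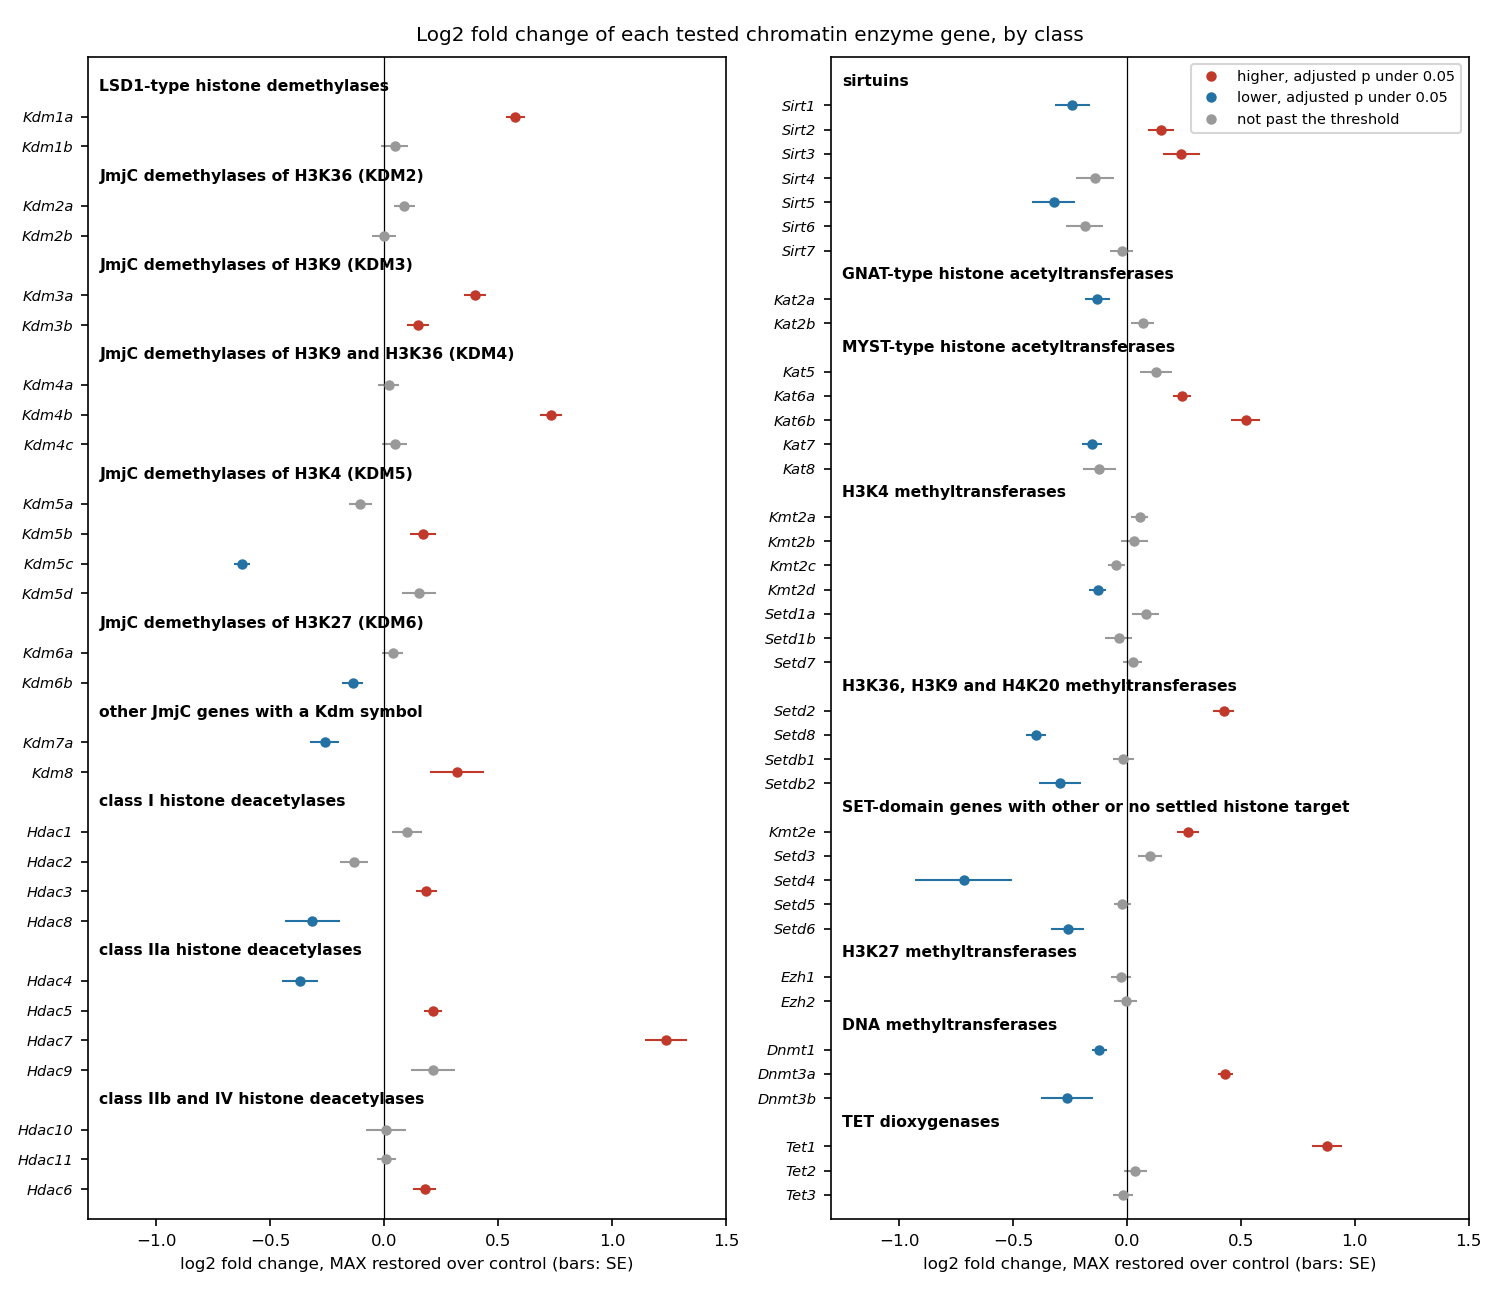
Log2 fold change, MAX restored over control, of each of 66 tested enzyme genes with its SE, grouped by enzyme class; red is higher and blue lower at adjusted p under 0.05, and grey is not past the threshold. Hdac7, Tet1, Kdm4b, Kdm1a and Kat6b lie above 0.5, Setd4 and Kdm5c below -0.5, and most of the H3K4 and H3K27 methyltransferases lie on 0.

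Among the histone demethylases 6 of 17 tested genes were higher and 3 lower. Of all tested genes 63.5% were called, 31.2% higher and 32.3% lower. The counts of this and the following classes are to be read against those shares. Kdm4b, a JmjC demethylase of H3K9 and H3K36, had 112, 113 and 112 CPM in MAX restored libraries 1, 2 and 3, against 69.0, 62.6 and 71.6 CPM in controls 1, 2 and 3. The groups lie well apart, at a 1.66-fold higher level with MAX restored (log2 0.73, SE 0.05, adjusted p = 1.59e-10). Its paralogues Kdm4a (log2 0.02, adjusted p = 0.733) and Kdm4c (0.05, adjusted p = 0.483) did not pass the threshold. Kdm1a had 249, 246 and 257 CPM in MAX restored libraries, against 172, 164 and 168 CPM in controls, again with no overlap (1.49-fold, log2 0.58, SE 0.04, adjusted p = 4.47e-10). Its paralogue Kdm1b, which acts on H3K4 within transcribed genes, had log2 0.05 and adjusted p = 0.531. Of its 4987 counted bases, 513 overlap Dek on the other strand, and the reads were counted without strand. Here and at the overlaps named below, reads over exons of both genes are left out under the counting setting used. Both H3K9 demethylase genes of the KDM3 family were higher. Kdm3a, a known hypoxia target, had 88.0, 91.9 and 93.1 CPM in MAX restored libraries, against 70.0, 71.0 and 66.0 CPM in controls (1.32-fold, log2 0.40, SE 0.05), and Kdm3b rose by log2 0.15 (SE 0.05).

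The H3K4 demethylases of the KDM5 family moved apart. Kdm5c, the X-linked member, had 272, 277 and 282 CPM in MAX restored libraries 1, 2 and 3, against 421, 428 and 432 CPM in controls 1, 2 and 3. All MAX restored values lie below all control values (log2 -0.62, SE 0.04, adjusted p = 7.91e-12). Kdm5d, its Y-linked counterpart, had 28.0, 28.6 and 28.2 CPM in MAX restored libraries, against 24.3, 27.1 and 24.8 CPM in controls, and did not pass (log2 0.15, SE 0.08, adjusted p = 0.081). Kdm5b rose by log2 0.17 (SE 0.06, adjusted p = 0.0136), with overlapping groups because control 1 had 109.5 CPM against 109.7, 109 and 119.9 CPM in the MAX restored libraries. That call was lost without MAX restored 3 (adjusted p = 0.0821), control 2 (0.0573) or control 3 (0.0674). Kdm5a had log2 -0.11 (adjusted p = 0.0732).

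In the H3K27 demethylases Kdm6a (UTX) had log2 0.04 (adjusted p = 0.488), and Kdm6b (JMJD3), the signal-induced member, was lower. Kdm6b had 199.6, 207 and 194 CPM in MAX restored libraries, against 207, 224 and 231 CPM in controls, with ranges that just touch (log2 -0.14, SE 0.05, adjusted p = 0.0147). The Kdm6b call was lost without MAX restored 1 (adjusted p = 0.0652), MAX restored 3 (0.0982) or control 3 (0.0805). Kdm7a, which removes methyl groups from H3K9 and H3K27, was lower by log2 -0.26 (SE 0.06). Control 1, at 153 CPM, was the highest of the controls at 153, 125 and 127 CPM, where MAX restored libraries had 111, 109 and 119 CPM. Kdm8, a JmjC oxygenase, was higher by log2 0.32 (SE 0.12, adjusted p = 0.0254), a call lost without MAX restored 1 (adjusted p = 0.143) or control 2 (0.0847). Neither H3K36 demethylase of the KDM2 family passed. Kdm2a had 197, 206 and 211 CPM in MAX restored libraries, against 200.04, 188 and 189 CPM in controls (log2 0.09, adjusted p = 0.0916), and Kdm2b had log2 0.00 (adjusted p = 0.971).

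**Figure D3:**
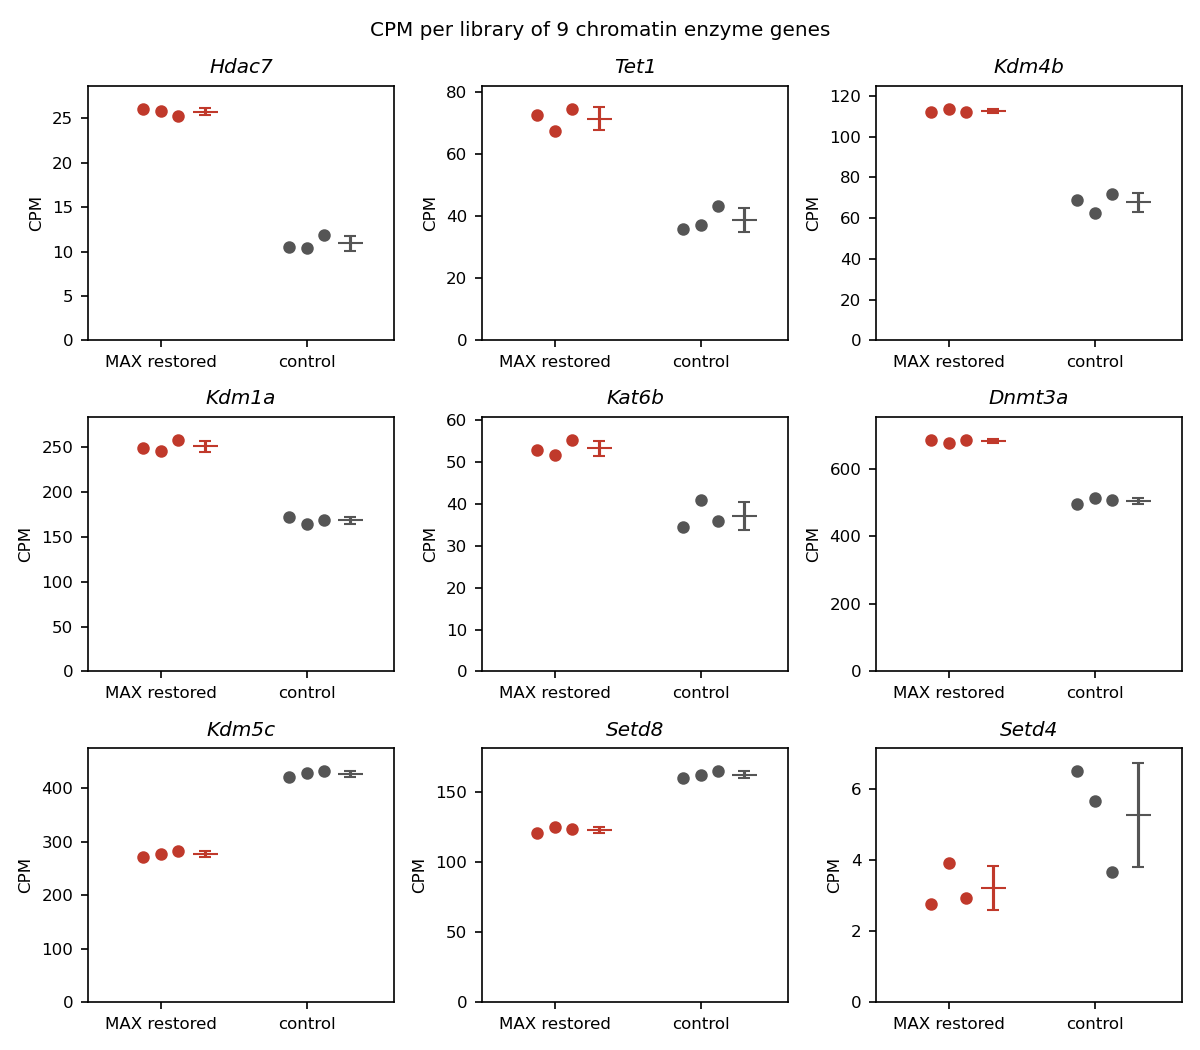
CPM per library (points, replicates 1 to 3) with mean and SD (bar) for 9 enzyme genes, MAX restored in red on the left and control in grey on the right of each panel. The groups do not overlap for 8 of the 9 genes, and for Setd4, at 2.77 to 3.92 CPM with MAX restored against 3.67 to 6.50 CPM in controls, they do.

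Of the 11 classical deacetylase genes 4 were higher and 2 lower. Hdac7 had the largest change of any enzyme gene tested, with 26.0, 25.9 and 25.3 CPM in MAX restored libraries 1, 2 and 3, against 10.5, 10.4 and 11.9 CPM in controls 1, 2 and 3. It was 2.36-fold higher (log2 1.24, SE 0.09, adjusted p = 5.94e-10), from a low level of 5.19 CPM per kb in MAX restored libraries and 2.20 CPM per kb in controls. Exons of Slc48a1 on the other strand cover 232 of its 4960 counted bases, and Slc48a1 had log2 0.00. The class IIa enzymes shuttle between cytoplasm and nucleus and act with MEF2 factors, and they did not move as 1 group. Hdac5, the most abundant, had 289.8, 291 and 274 CPM in MAX restored libraries, against 245, 247 and 246 CPM in controls (log2 0.21, SE 0.04). Hdac4 was lower, with 22.9, 22.0 and 22.3 CPM in MAX restored libraries, against 26.5, 30.4 and 30.1 CPM in controls (log2 -0.37, SE 0.08, adjusted p = 0.000444). Hdac9 had log2 0.22 and adjusted p = 0.057; without MAX restored 3 the log2 fold change was 0.12, and it passed without MAX restored 1 (adjusted p = 0.0355), MAX restored 2 (0.0481) or control 1 (0.0308) and with the replicate number as a block (0.0488).

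The class I deacetylases include catalytic subunits of the large corepressor complexes, and of these 4 genes 1 was higher and 1 lower. Hdac1 (log2 0.10, adjusted p = 0.186) and Hdac2 (log2 -0.13, adjusted p = 0.0599) did not pass. Hdac2 had 205, 197 and 198 CPM in MAX restored libraries, against 249.7, 203 and 206 CPM in controls, so control 1 alone is far above the MAX restored range. Without control 1 its log2 fold change was -0.03 (adjusted p = 0.427), and it passed as lower without control 2 (adjusted p = 0.0127) or control 3 (0.0176) and with the replicate number as a block (0.0206). Hdac3, the enzyme of the NCoR complexes, had 111, 107 and 111 CPM in MAX restored libraries, against 95.4, 98.7 and 95.4 CPM in controls, without overlap (log2 0.18, SE 0.05, adjusted p = 0.00156). Hdac8 was lower by log2 -0.32 (SE 0.12, adjusted p = 0.029) at 8.91 ± 0.560 CPM in MAX restored libraries and 11.1 ± 1.24 CPM in controls (SD, n = 3 each). The Hdac8 call was lost without MAX restored 2 (adjusted p = 0.0612), MAX restored 3 (0.102), control 2 (0.129) or control 3 (0.0629). Of the remaining classes Hdac6, a tubulin deacetylase, was higher, with 88.4, 98.6 and 89.5 CPM in MAX restored libraries, against 78.9, 82.6 and 83.1 CPM in controls (log2 0.18, SE 0.05, adjusted p = 0.00494). Hdac10, a polyamine deacetylase, and Hdac11 each had log2 0.01, with adjusted p of 0.941 and 0.851.

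The 7 sirtuins, deacylases that use NAD, gave 2 higher and 2 lower. Sirt5, the mitochondrial desuccinylase, had 13.3, 13.8 and 13.6 CPM in MAX restored libraries, against 18.3, 16.2 and 16.3 CPM in controls (log2 -0.32, SE 0.10, adjusted p = 0.00667). Sirt3, the main mitochondrial deacetylase, had 26.0, 26.5 and 23.5 CPM in MAX restored libraries, against 21.4, 21.2 and 21.9 CPM in controls (log2 0.24, SE 0.08, adjusted p = 0.0153), though the overlapping gene Ric8 shares 207 of its 1575 counted bases. Sirt1, the nuclear sirtuin, had 42.9, 44.3 and 44.0 CPM in MAX restored libraries, against 59.2, 44.3 and 51.5 CPM in controls. Its lower value (log2 -0.24, SE 0.08, adjusted p = 0.0113) rests on control 1, without which the log2 fold change was -0.13 and the adjusted p 0.0683. Without MAX restored 1 its adjusted p was 0.0562. Sirt2, mainly cytoplasmic, was higher by log2 0.15 (SE 0.06, adjusted p = 0.0286), with an adjusted p of 0.163 without control 1, 0.0714 without MAX restored 1 and 0.0746 without MAX restored 2. For Sirt3 the adjusted p was 0.055 without MAX restored 1 and 0.0638 without MAX restored 2. Sirt4, Sirt6 and Sirt7 did not pass, at log2 -0.14, -0.18 and -0.02.

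Of the 7 acetyltransferase genes 2 were higher and 2 lower. Both MOZ and MORF, the paired MYST enzymes that act with BRPF scaffolds, were higher. Kat6b (MORF) had 52.9, 51.7 and 55.2 CPM in MAX restored libraries 1, 2 and 3, against 34.6, 40.8 and 35.9 CPM in controls 1, 2 and 3 (1.43-fold, log2 0.52, SE 0.07, adjusted p = 8.7e-07). Kat6a (MOZ), more abundant, had 358, 359.5 and 359 CPM in MAX restored libraries, against 287, 316 and 307 CPM in controls (log2 0.24, SE 0.04). Kat7 (HBO1) was lower by log2 -0.16 (SE 0.04, adjusted p = 0.0044), with an adjusted p of 0.0516 without MAX restored 1. Kat2a (GCN5), the SAGA enzyme that MYC is known to recruit, had 116, 116 and 117 CPM in MAX restored libraries, against 117, 129 and 136 CPM in controls. Its lower call (log2 -0.13, SE 0.05, adjusted p = 0.0425) depended on single libraries and on the processing. The call was lost without MAX restored 1 (adjusted p = 0.108), 2 (0.111) or 3 (0.0928) and without control 2 (0.0863) or 3 (0.205). It was also lost with upper-quartile scaling (0.104) and a minimum count of 30 (0.0663), and passed in 7 of 15 alternatives. Kat2b (PCAF), Kat5 (TIP60) and Kat8 (MOF) did not pass, at log2 0.07, 0.13 and -0.12.

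The histone methyltransferases that set H3K4 and H3K27 methylation showed little change. Of the H3K4 group (Kmt2a, Kmt2b, Kmt2c, Kmt2d, Setd1a, Setd1b and Setd7) 1 of 7 was called, and all log2 fold changes lay between -0.13 and 0.08. The called gene was Kmt2d (MLL4), an enhancer enzyme, with 391, 398 and 400.0 CPM in MAX restored libraries, against 410.3, 441 and 449 CPM in controls (log2 -0.13, SE 0.04, adjusted p = 0.0052). Ezh2, the catalytic subunit of PRC2 that is abundant in small cell lung cancer, had 139.9, 148 and 144 CPM in MAX restored libraries, against 151, 146 and 137 CPM in controls (log2 -0.01, SE 0.05, adjusted p = 0.926). Ezh1, the form found in resting cells, had 92.9, 94.0 and 95.0 CPM in MAX restored libraries, against 94.7, 99.2 and 93.0 CPM in controls (log2 -0.03, SE 0.05, adjusted p = 0.637), so the groups overlap.

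Enzymes of other lysines were split. Setd2, which sets H3K36 trimethylation on transcribed genes, had 119, 109.9 and 115 CPM in MAX restored libraries, against 85.7, 86.5 and 84.0 CPM in controls (1.34-fold, log2 0.42, SE 0.05, adjusted p = 1.83e-07). Setd8, which places the first methyl group on H4K20 and whose product is cell cycle regulated, had 120.4, 125 and 124 CPM in MAX restored libraries, against 159.6, 162 and 165 CPM in controls. The groups do not overlap (log2 -0.40, SE 0.05, adjusted p = 2.53e-07). Of the H3K9 enzymes Setdb1, which silences retroelements, had log2 -0.02 (adjusted p = 0.769), and Setdb2 was lower by log2 -0.30 (SE 0.09, adjusted p = 0.00881), with an adjusted p of 0.0602 without MAX restored 2 and 0.0529 without control 2. Among SET-domain genes whose products have other targets or no settled activity on histones, Kmt2e (MLL5) had 199.98, 203 and 211 CPM in MAX restored libraries, against 159, 174 and 178 CPM in controls (log2 0.27, SE 0.05, adjusted p = 7.99e-05), although Srpk2 exons cover 874 of its 7258 counted bases. Setd4 had 2.77, 3.92 and 2.93 CPM in MAX restored libraries, against 6.50, 5.66 and 3.67 CPM in controls, and passed with overlapping groups at a low level (log2 -0.72, SE 0.21, adjusted p = 0.00617). Setd6 was lower by log2 -0.26 (SE 0.07), while Setd3, an actin histidine methyltransferase, and Setd5 did not pass, at log2 0.10 and -0.02.

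DNA methylation enzymes changed within their families. Dnmt3a, a de novo methyltransferase, had 684, 675 and 685 CPM in MAX restored libraries 1, 2 and 3, against 495, 514 and 507 CPM in controls 1, 2 and 3. It was 1.35-fold higher without overlap (log2 0.43, SE 0.03, adjusted p = 4.79e-10). The other de novo gene, Dnmt3b, was scarce and lower by log2 -0.26 (SE 0.11, adjusted p = 0.0477). Its call was lost without MAX restored 1 (adjusted p = 0.0755), 2 (0.163) or 3 (0.065), without control 1 (0.0576) or 2 (0.152), and with the replicate number as a block (0.0561). Other scalings and filters lost it too: RLE (0.0501), upper-quartile (0.0723), a minimum count of 30 (0.0587) and no filter beyond 1 count (0.0595). It passed in 4 of 15 alternatives. Dnmt1 had 775, 779 and 738 CPM in MAX restored libraries, against 808, 843 and 843 CPM in controls (log2 -0.12, SE 0.03, adjusted p = 0.00378).

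Tet1 was the TET gene that rose, with 72.6, 67.4 and 74.6 CPM in MAX restored libraries 1, 2 and 3, against 36, 37.3 and 43.4 CPM in controls 1, 2 and 3. The lowest MAX restored value is well above the highest control (1.84-fold, log2 0.88, SE 0.07, adjusted p = 5.89e-10). Tet2 (log2 0.04, adjusted p = 0.542) and Tet3 (log2 -0.02, adjusted p = 0.748) did not pass. Tet3 stayed the most abundant of the family per length, at 27.2 CPM per kb in MAX restored libraries and 27.5 CPM per kb in controls.

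Ratios between paralogues within a library, taken per length, do not depend on how libraries are scaled. The ratio of Tet1 to Tet2 was 0.612, 0.581 and 0.624 in MAX restored libraries, against 0.332, 0.325 and 0.357 in controls. Dnmt3a exceeded Dnmt3b 29.5, 32.3 and 29.3 times in MAX restored libraries, against 18.4, 17.9 and 20.0 times in controls. For Hdac4 to Hdac5 the ratio was 0.0889, 0.0850 and 0.0914 in MAX restored libraries, against 0.121, 0.139 and 0.137 in controls. Kdm1a exceeded Kdm1b 9.34, 9.14 and 10.2 times in MAX restored libraries, against 7.09, 6.44 and 6.33 times in controls. In contrast the ratio of Ezh1 to Ezh2 was 0.421, 0.403 and 0.418 in MAX restored libraries, against 0.398, 0.432 and 0.431 in controls. Of 17 pairs compared, 11 had groups that did not overlap. By comparison, the CPM ranges of the groups did not overlap for 67.1% of all tested genes, and ratios of other gene pairs were not taken. The 11 pairs reached 0.1, the smallest p that an exact two-sided permutation test of 3 against 3 can give. After Benjamini-Hochberg adjustment over the pairs this was 0.155.

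Some enzyme genes lie where neighbouring genes shifted with them. The median log2 fold change of the 50 tested genes around Kdm5c, which lies on chromosome X of mm9 from 148667770 to 148713642, was -0.59, against -0.62 for the gene itself. Of those neighbours 68.0% were called lower, against 32.3% of all tested genes. Phf8, Rbbp7 and Msl3, genes of the lists below, start on X at 147955215, 159198304 and 165091031. They were lower too, with neighbour medians of -0.44, -0.59 and -0.57. For the X-linked Kdm6a, Hdac6 and Hdac8 these medians were 0.07, 0.02 and 0.05. Whether the lower genes on X changed separately was not tested. Around Kdm1a, on chromosome 4 from 136106448 to 136158638, the median was 0.38, against 0.58 for the gene. Of its neighbours 76.0% were called higher, against 31.2% of all tested genes. On that chromosome the list genes Prdm2 and Prdm16, which start at 142697294 and 153690234, were higher too. Their neighbour medians were 0.49 and 0.38, against -0.12, -0.05 and 0.07 for Kdm4a, Kdm4c and Hdac1 on the same chromosome. Hdac3, at log2 0.18, has neighbours with a median of 0.25. For Kdm4b, on chromosome 17 from 56465473 to 56542296, the median was -0.03, for Hdac7, on chromosome 15 from 97623095 to 97674933, -0.05, and for Tet1, on chromosome 10 from 62267318 to 62342762, 0.06. Thus the neighbours of Kdm5c, Kdm1a and Hdac3 shifted in the direction of the gene and those of Hdac7, Tet1 and Kdm4b stayed near 0, and the part of the neighbourhood in the changes of single genes was not tested.

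**Figure D4:**
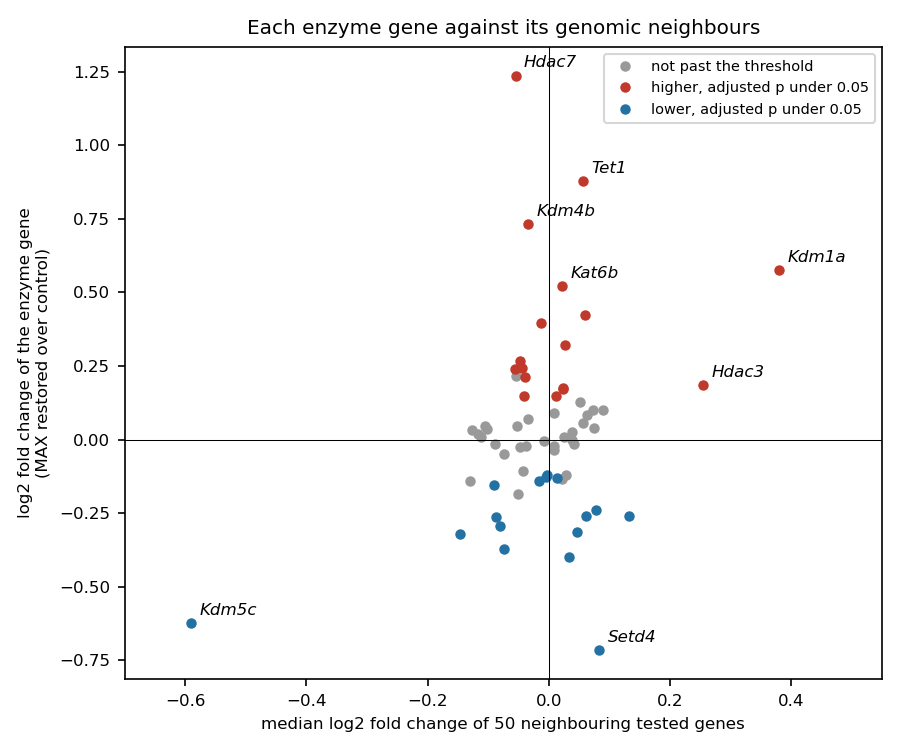
Log2 fold change of each tested enzyme gene (vertical) against the median log2 fold change of the 25 tested genes on either side of it on its chromosome (horizontal), for genes with 50 such neighbours; red and blue mark adjusted p under 0.05. Kdm5c at -0.59, Kdm1a at 0.38 and Hdac3 at 0.25 stand out along the horizontal axis, while Hdac7, Tet1 and Kdm4b have neighbours near 0.

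Since MYC-MAX and MXD-MAX dimers recognise CACGTG, the promoters of the enzyme genes were searched for these letters, which read alike on both strands. RefSeq promoter windows of GRCm38.p6, from 250 bases before to 50 after a start site, were found for 56 of the 69 genes, and 7 of these, or 12.5%, held the motif in a window, against 8.09% of 27025 genes with windows. The enzyme genes have more windows each, and per window the shares were 8.86% of 79 and 7.15% of 32851. Of the 7, Dnmt3a and Hdac5 were higher, Sirt1 was lower, Kdm4c, Kat5 and Kdm6a did not pass, and Dnmt3l had no reads. Among genes with windows, 3 of 27 called genes and 3 of 26 that did not pass held the motif. The called genes Kdm4b, Setd8, Kat6a, Kmt2e and Hdac3 were among those without a window. The Sirt1 call was lost without control 1 or MAX restored 1. Shown are the 250 bases before the start for the genes with the motif that moved furthest in each direction, Dnmt3a and Sirt1, and for Kdm4c, which has a pair of motifs and did not pass; capitals mark CACGTG.
Dnmt3a, chr12:3891494-3891743, plus strand: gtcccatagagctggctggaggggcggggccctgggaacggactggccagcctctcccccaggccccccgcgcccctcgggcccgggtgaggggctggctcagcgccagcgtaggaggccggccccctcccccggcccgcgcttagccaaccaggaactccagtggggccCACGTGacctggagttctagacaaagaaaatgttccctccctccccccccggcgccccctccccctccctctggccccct
Sirt1, chr10:63339036-63339285, minus strand: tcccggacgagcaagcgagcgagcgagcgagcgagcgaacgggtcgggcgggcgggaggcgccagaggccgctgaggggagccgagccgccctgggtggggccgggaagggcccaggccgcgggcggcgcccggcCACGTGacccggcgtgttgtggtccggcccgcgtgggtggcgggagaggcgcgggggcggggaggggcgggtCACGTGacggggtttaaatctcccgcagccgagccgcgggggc
Kdm4c, chr4:74251629-74251878, plus strand: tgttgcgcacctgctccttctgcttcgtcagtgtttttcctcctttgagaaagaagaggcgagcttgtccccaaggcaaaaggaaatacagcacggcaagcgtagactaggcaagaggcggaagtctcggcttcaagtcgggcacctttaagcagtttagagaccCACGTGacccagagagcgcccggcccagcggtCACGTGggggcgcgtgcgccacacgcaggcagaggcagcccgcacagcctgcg

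The motif begins 80 bases before the Dnmt3a start in 1 of its 3 windows, 115 and 43 bases before the Sirt1 start, and 85 and 53 bases before the Kdm4c start. A match describes these letters in these windows and no binding was measured.

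The enzymes work in complexes, so 8 lists of partner and related genes were set beside them; of all tested genes 63.5% were called, 31.2% higher and 32.3% lower. PRC2 partners, which hold EZH1 and EZH2 in an active complex, were lower in 6 of 9 and higher in 1, or 77.8% called, with a median log2 fold change of -0.27, where the median of all tested genes was 0.00. Rbbp7, a histone chaperone shared with NuRD and SIN3, had 427, 397 and 420.1 CPM in MAX restored libraries, against 808, 779.6 and 788 CPM in controls (log2 -0.93, SE 0.03), and its 50 neighbours on chromosome X had a median of -0.59. Phf19, a PRC2 accessory subunit, had 70.3, 73.9 and 71.0 CPM in MAX restored libraries, against 126, 130.3 and 132 CPM in controls (log2 -0.85, SE 0.05), with a neighbour median of 0.11. Jarid2 (log2 -0.37) and Rbbp4 (log2 -0.25) were also lower, and Phf1, named after its value was seen, was the member that was higher (log2 0.43). COMPASS and MLL cofactors, the partners of the H3K4 methyltransferases, were higher in 6 of 13 and lower in 1, or 53.8% called, with a median of 0.11. The 1 was Wdr5 (log2 -0.41, SE 0.05), which anchors the complexes, and Hcfc1 (log2 0.36), Paxip1 (log2 0.37) and Men1 (log2 0.22) were among the higher ones.

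Corepressor subunits of SIN3, NuRD, CoREST and NCoR were higher in 13 and lower in 7 of 37 (median 0.05), with Rbbp7 lower and Zmym3 (log2 0.64), Gatad2a (log2 0.43, neighbour median 0.45) and the NuRD remodeller Chd4 (log2 0.30) higher. Cofactors of SAGA, NuA4 and the MYST complexes split evenly, 13 higher and 13 lower of 51 (median 0.04). Trrap, the scaffold through which MYC recruits acetyltransferases, had 352, 349.9 and 339 CPM in MAX restored libraries, against 227, 268 and 255 CPM in controls (log2 0.47, SE 0.05), with control 1 the lowest. Epc1 (log2 0.47) was higher, and Msl3 (log2 -0.71), whose X-linked neighbours had a median of -0.57, and Ruvbl2 (log2 -0.52) were lower.

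Acetyltransferase genes outside the symbol rule were called in 15 of 16, with 8 higher and 7 lower (median 0.11), where 63.5% of all tested genes were called. Crebbp (log2 0.41) and Ncoa2 (log2 0.40), coactivators of many factors, were higher, whereas Hat1 (log2 -0.57), which acetylates newly made H4, and Nat10 (log2 -0.71), an RNA cytidine acetyltransferase, were lower. Crebbp had 116, 116 and 115 CPM in MAX restored libraries, against 75.4, 93.8 and 91.6 CPM in controls, with control 1 the lowest. Other lysine methyltransferases were higher in 6 and lower in 9 of 20 (median -0.04). The H3K9 enzyme gene Suv39h2 had 8.07, 8.03 and 8.70 CPM in MAX restored libraries, against 20.2, 16.0 and 17.6 CPM in controls (log2 -1.12, SE 0.11). Smyd5 (log2 -0.96) was lower too, while Prdm16 (log2 0.83, neighbour median 0.38) and Prdm2 (log2 0.45, neighbour median 0.49) were higher.

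Further JmjC genes were higher in 3 and lower in 6 of 13 (median -0.20). Hr, an H3K9 demethylase known from hair follicles, had 6.89, 8.12 and 8.21 CPM in MAX restored libraries, against 0.788, 0.767 and 0.297 CPM in controls (log2 3.61, SE 0.25). The control values rest on 8, 8 and 3 counts, below the minimum count of 10, so Hr was kept through the MAX restored libraries, with 82, 91 and 84 counts, and the size of its change is uncertain. Phf8 (log2 -0.73, neighbour median -0.44), Jarid2 and Mina (log2 -0.44) were lower. Readers and recruiters of DNA methylation were higher in 5 and lower in 4 of 15 (median -0.01). Uhrf1, which brings DNMT1 to replicating DNA, had 144, 144 and 136 CPM in MAX restored libraries, against 196, 207 and 193 CPM in controls (log2 -0.49, SE 0.05), and the remodeller gene Hells was lower by log2 -0.53, while Cxxc4 (log2 0.63), which binds TET2, and Zbtb4 (log2 0.52) were higher.

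**Figure D5:**
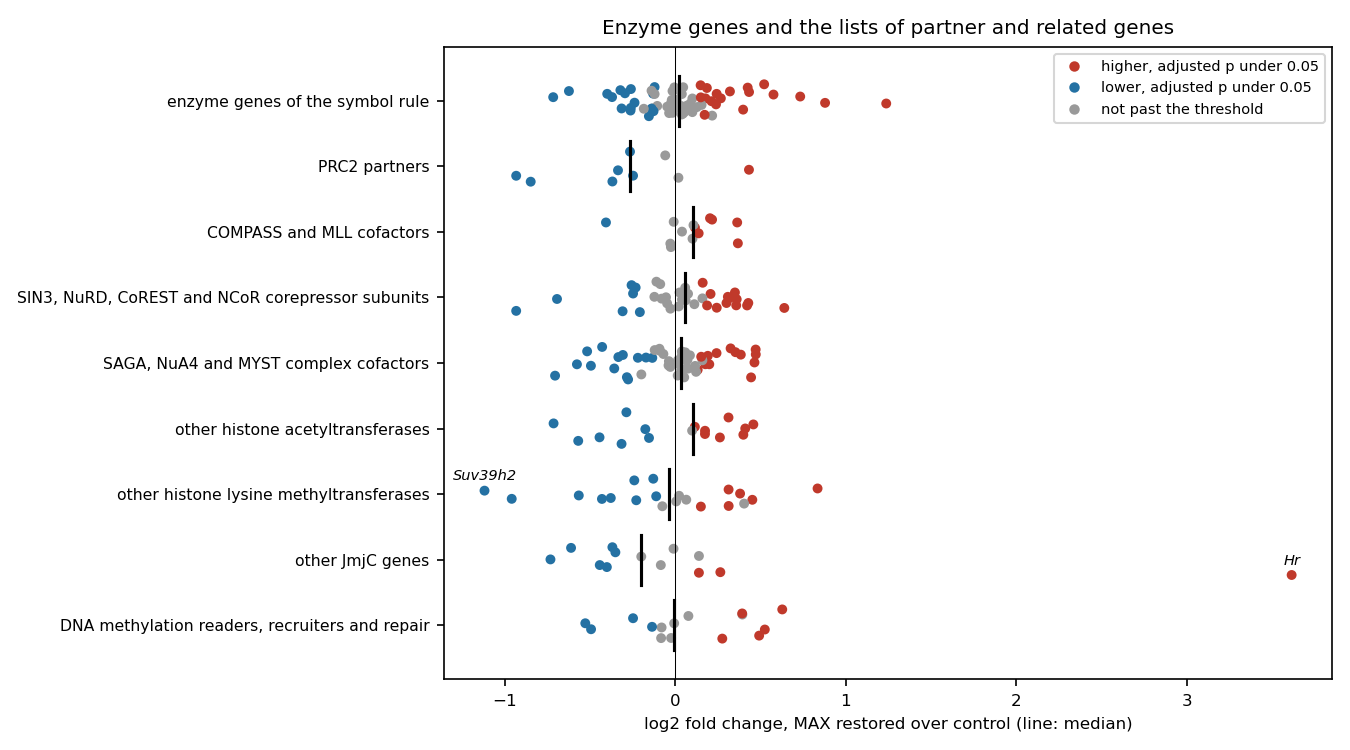
Log2 fold change, MAX restored over control, of the 66 tested enzyme genes (top row) and of the tested genes of 8 lists of partners and related enzymes; each point is a gene, red higher and blue lower at adjusted p under 0.05, grey not past the threshold, and the black line is the median of the row. PRC2 partners have the lowest median of the rows, at -0.27, and the point at 3.61 is Hr, which had at most 8 counts in a control library.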

How the data were processed

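RNA-seq counts of 3 MAX restored and 3 control libraries were used, made from 500 ng of total RNA each. The tools bcl2fastq 1.8.4, STAR 2.5.2a, Subread 1.6.0 and build mm9 are listed in the submitters' processing notes. What was deposited is a raw count for each gene symbol; per the file headers the authors counted with featureCounts, without strand, over exons of the UCSC mm9 annotation. No option to count reads over several genes was set, a setting under which featureCounts leaves out reads that overlap exons of more than one gene, and close copies of a gene may go undercounted.

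The edgeR 4.0.16 filter filterByExpr, set to a minimum count of 10, chose the genes, which were scaled by TMM and tested with the quasi-likelihood test, group only, two-sided, in R 4.3.3. Adjustment (Benjamini-Hochberg, threshold 0.05) ran over all 12664 genes kept. Standard errors were taken from each coefficient and its F statistic. The biological coefficient of variation was 4.28%. The scripts were tested on simulated data. No replicate pair lay within sampling noise. Alternatives covered other scalings and filters, DESeq2 1.42.0, limma 3.58.1 voom, the replicate number as a block, a length trend and leaving out each library. They were followed for the enzyme genes and for the counts over all genes, and not for single genes of the lists. Members and lists were chosen with earlier results of these data known. Per-library values are given for called genes with an absolute log2 fold change of at least 0.5 and for the smallest p of each class, and for others added after their values were seen. The comparison with neighbouring genes was also chosen after the data were seen. From each list up to 4 genes with the smallest p are named, and Phf1 besides.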

Additional observations from a re-analysis of the deposited data

How the results depend on the processing

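Of the 34 enzyme genes called, 21 stayed past the threshold with the same sign in all 15 alternatives, among them Hdac7 (log2 1.17 to 1.30), Tet1 (0.77 to 0.96), Kdm4b (0.67 to 0.77), Kdm1a (0.56 to 0.60) and Kdm5c (-0.73 to -0.60). No called gene changed sign in these alternatives. DESeq2 called 15 enzyme genes higher and 13 lower, against 3444 and 3576 of all genes, where the reported test called 3948 and 4092. With limma voom the counts were 18 and 16, against 3949 and 4083 of all genes. Upper-quartile scaling, which moved the median of all genes by 0.03, gave 22 and 14, against 4244 and 3799. At an adjusted p under 0.01 the counts were 14 and 11, against 3243 and 3418 of all genes. With a log2 fold change of at least 0.5 also required, 5 enzyme genes were higher and 2 lower, against 1756 higher and 1338 lower of all tested genes. Leaving out 1 library gave 16 to 20 higher and 11 to 17 lower, against 3618 to 4033 and 3640 to 4219 of all genes. With the replicate number as a block 19 were higher and 17 lower, against 3941 and 4093 of all genes. Same-numbered libraries did not deviate together (correlations 0.00, 0.04 and -0.02), and libraries of unlike number gave -0.07 to 0.06. With 3 libraries in each group this cannot tell whether the numbers pair the samples. Removing the trend with length, which fitted log2 -0.06 at 1197 bases and 0.14 at 6441 bases, gave 16 and 18. Of all genes 3893 and 3974 were then called. That removal ended the calls of Kdm5b, Sirt5, Kdm3b and Hdac8. DESeq2 did not call Kat2a, Dnmt3b, Sirt2, Kdm8, Sirt3 and Hdac8. Of the 32 genes not called, 12 passed in 1 or more alternatives: Hdac9 in 6, Hdac2 and Sirt6 in 4 each, Setd3, Kdm2a, Kmt2c, Kdm5a and Kdm5d in 2 each, and Kat5, Setd1b, Tet3 and Setd5 in 1 each. The log2 fold changes that changed sign belonged to genes not called in the reported test, and the cause was not tested. Under upper-quartile scaling they were Sirt7 (0.0031), Setdb1 (0.0090), Kdm2b (0.023), Ezh2 (0.020), Tet3 (0.0087) and Setd5 (0.0043). With the length trend removed they were Sirt7 (0.041), Kdm1b (-0.020), Setd7 (-0.060), Tet2 (-0.058), Kdm4c (-0.010), Kdm4a (-0.046), Ezh2 (0.0058), Kmt2b (-0.060), Kmt2a (-0.060) and Kdm6a (-0.030). Kdm2b was at 0.00069 with RLE scaling, 0.013 with a minimum count of 30 and 0.0010 in DESeq2, and Ezh2 at 0.0097 with a minimum count of 30. When 1 library was left out the values ran from -0.048 to 0.00014 for Ezh1, -0.045 to 0.024 for Ezh2, -0.060 to 0.065 for Hdac10, -0.00093 to 0.021 for Hdac11, -0.033 to 0.018 for Kdm2b, -0.0059 to 0.038 for Kdm4a, -0.051 to 0.089 for Kmt2b, -0.11 to 0.0090 for Setd1b, -0.0023 to 0.041 for Setd7, -0.048 to 0.0080 for Sirt7, -0.0045 to 0.077 for Tet2 and -0.064 to 0.0054 for Tet3. Depth limits Setd4, Dnmt3b, Hdac8 and Kdm8 most among the called genes, at 3.21, 9.78, 8.91 and 11.8 CPM with MAX restored.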
